A study of Mus musculus with 17 samples.

Results

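The poly(ADP-ribose) polymerase (PARP) family and its partner Dtx3l were followed across 17 mouse spleen RNA-seq libraries. The 10 genes are 6 that respond to interferon (Parp9, Parp10, Parp11, Parp12, Parp14 and Dtx3l) and 4 that are taken as constitutive (Parp1, Parp2, Parp3 and Parp8). They were found by their symbols in a table of normalised expression values, which held all 10 of them among 38340 named genes, and all 10 passed the filter on low values. The division into 6 and 4 comes from what is known of these genes and from earlier results of these data, so it is a way of ordering the description and not a finding.

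PARP enzymes cut NAD and attach the ADP-ribose part to proteins, to nucleic acids or to a growing ADP-ribose chain. Parp1, Parp2 and Parp3 are nuclear enzymes that are switched on by DNA breaks, and Parp1 and Parp2 build the long chains that recruit repair factors. Most of the other members transfer single ADP-ribose units, and several of them belong to the antiviral genes that type I and type II interferons turn on in immune cells. Dtx3l is not a PARP but a Deltex-type E3 ubiquitin ligase that forms a complex with Parp9, and macrodomains in Parp9 and Parp14 bind ADP-ribose.

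The mice were of the strain labelled CB57BL/6NCrl and carried no allele named in the labels. They had received SLR10 or SLR14, short stem-loop RNAs made as ligands of the cytosolic RNA sensor RIG-I, the synthetic double-stranded RNA poly(I:C), or an RNA named pppNS, with 3 libraries for each; the vehicle group, given the jetPEI transfection reagent alone, had 2 libraries and the untreated naive group had 3. The protocol, worded for the SLRs, gives 25 µg of RNA in 200 µl, complexed with in vivo-jetPEI at an N/P ratio of 8 and injected into a vein, and the time between injection and collection was not given in the sources used here. Nothing in the labels beyond the group sizes says that each library came from a separate animal, so the p-values measure the spread between these libraries, which may be partly technical. The labelled tissue was checked against marker genes: Cd79a of B cells, Spic and Vcam1 of red pulp macrophages and Tlx1, a spleen stromal factor, were detected in every library.

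The libraries held 26453585 to 42775104 reads (median 30879775 in SLR10 replicate 3), and 15763030 to 29557853 of them fell on named genes, and 1 read was worth 0.0175 to 0.0431 CPM. All values below are normalised counts-per-million (CPM). Some libraries stood apart from their groups. In pppNS replicate 3, transcripts with under 2000 bases of merged exons were a median of 1.12 log2 units above their level in the other 2 pppNS libraries. Those with over 6000 bases were 0.46 below (log2 change -0.46). Naive replicate 3 showed the same contrast between long and short transcripts at a smaller size (-0.61, against -1.58 in pppNS replicate 3). Naive replicate 1 showed the opposite contrast at a like size (0.60), and naive replicate 2 almost none (0.04). Each library was set against its group mates, so the naive values do not single out replicate 3. SLR14 replicate 2 and poly(I:C) replicates 2 and 3 held 20317 to 38881 CPM of 12 summed erythroid marker genes and are called erythroid-high below. The other libraries of the SLR10, SLR14 and poly(I:C) groups held 2943 to 5421. The name covers these groups only: pppNS replicate 3 held the highest sum of all libraries, 73188 CPM. It stayed in the fits without the erythroid-high libraries. Those fits leave poly(I:C) with replicate 1 alone and SLR14 with replicates 1 and 3.

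Of the 10 genes, 3 lie close together on chromosome 16 (GRCm38, GENCODE vM21): Parp14 at chr16:35832874-35871544 and Dtx3l at chr16:35926511-35939151, both on the minus strand, and Parp9 at chr16:35938470-35972605 on the plus strand. Between Parp14 and Dtx3l lie 54966 bases. Dtx3l and Parp9 are arranged head to head, and their annotated spans overlap by 682 bases, 458 of them exonic in both, which is 8% of the exon bases of Dtx3l and 9.4% of those of Parp9. Reads from those shared bases can be told apart only by strand, and the strand setting of the counting was not given in the sources used here. The remaining 7 genes are spread over chromosomes 1, 6, 9, 13, 14 and 15; Parp11 and Parp12 share chromosome 6 without being neighbours.

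**Figure D1:**
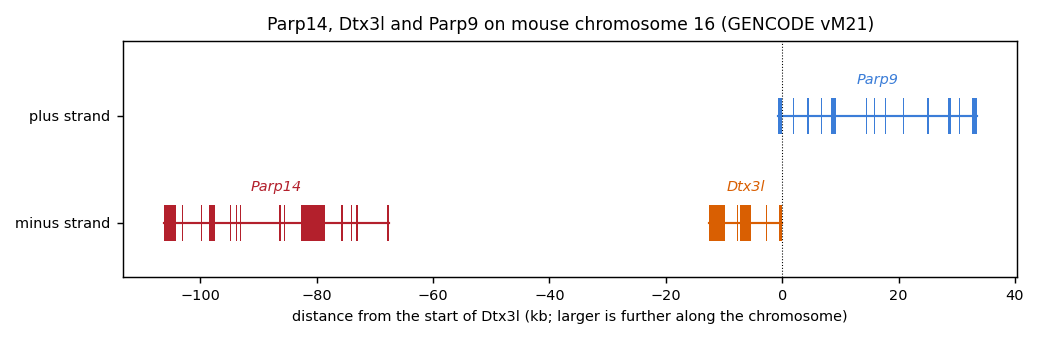
Map of Parp14, Dtx3l and Parp9 on mouse chromosome 16, drawn to scale from GENCODE vM21; the x axis is the distance in kb from the start of Dtx3l, boxes are exons merged over transcripts, and the rows are the strands. Dtx3l and Parp9 begin 682 bases into each other and run in opposite directions, and Parp14 lies 54966 bases from the far end of Dtx3l on the same strand as Dtx3l.

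Promoter windows reaching from 250 bases before to 50 after the RefSeq start (GRCm38.p6) were at hand for 7 of the 10 genes: Dtx3l, Parp1, Parp2, Parp3, Parp8, Parp11 and Parp12. They were searched on both strands for the interferon-stimulated response element (ISRE), a DNA element of many interferon-induced genes, spelled as GAAA, any 2 bases and GAAA again, and for the gamma-activated site (GAS), spelled TTCNNNGAA. Parp11 was the only 1 of the 7 with a match to either. Its first of 2 starts, at chr6:127446590-127446889 on the plus strand, has an ISRE on the minus strand whose first base in the printed direction lies 44 bases before the start, and a GAS, which reads alike on both strands, begins 37 bases before the start and overlaps it. Of all 32851 promoter windows of this length, 3.44% hold the ISRE letters and 8.3% the GAS letters. A match is a description of the sequence and no evidence of binding, and no match says only that these letters are not in this window. The window of Parp11 is printed for its match, that of Dtx3l (chr16:35938978-35939277, minus strand) because it faces Parp9, and that of Parp1 (chr1:180568641-180568940, plus strand) as a constitutive gene for comparison. Capitals mark the ISRE, and the GAS shares its last 3 bases and runs on from there.
Parp11: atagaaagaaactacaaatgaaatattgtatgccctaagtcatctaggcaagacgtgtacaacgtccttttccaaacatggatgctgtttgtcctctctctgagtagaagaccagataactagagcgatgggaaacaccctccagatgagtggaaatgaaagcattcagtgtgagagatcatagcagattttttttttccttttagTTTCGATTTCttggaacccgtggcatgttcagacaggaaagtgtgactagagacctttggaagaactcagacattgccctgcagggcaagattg
Dtx3l: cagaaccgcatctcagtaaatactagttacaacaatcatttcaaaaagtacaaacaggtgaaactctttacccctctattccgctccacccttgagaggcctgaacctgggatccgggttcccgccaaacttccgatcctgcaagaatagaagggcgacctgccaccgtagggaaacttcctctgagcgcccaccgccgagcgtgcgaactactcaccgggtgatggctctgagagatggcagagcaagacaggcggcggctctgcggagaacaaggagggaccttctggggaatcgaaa
Parp1: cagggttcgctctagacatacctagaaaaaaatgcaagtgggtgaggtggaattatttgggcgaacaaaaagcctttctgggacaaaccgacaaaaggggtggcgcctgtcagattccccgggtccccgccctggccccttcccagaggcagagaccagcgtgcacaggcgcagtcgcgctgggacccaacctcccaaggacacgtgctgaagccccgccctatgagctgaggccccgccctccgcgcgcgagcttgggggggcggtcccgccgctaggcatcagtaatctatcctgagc
The bases of the 3 windows differ in composition as well, with 42% G and C for Parp11, 54.3% for Dtx3l and 62% for Parp1.

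All 6 interferon-responsive genes rose with each of the 4 RNAs against vehicle, by 5.03- to 16.2-fold with SLR10, SLR14 and poly(I:C) and by less with pppNS. A gene was called where its Benjamini-Hochberg adjusted p from limma, over all 14010 genes tested, was under 0.05; fold changes are 2 to the power of the fitted difference in log2(CPM + 0.5), with 95% intervals. SLR10 changed 39.4% of all tested genes by this rule (20.2% higher), SLR14 38.7% (19.3% higher), poly(I:C) 35.9% (18.6% higher) and pppNS 4.3% (2.96% higher). Against those shares, 6 of 6 responsive genes were higher with each RNA, and their median log2 change was 3.34 and 3.50 for SLR10 and SLR14, 3.61 for poly(I:C) and 1.97 for pppNS, where the median of all tested genes lay between -0.01 and 0.07. Since the 6 are known interferon targets, the direction is no independent evidence.

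Parp14, a large mono-ADP-ribosyltransferase with macrodomains that is best known as a cofactor of STAT6, had the highest level per length of the 10 genes with SLR10, SLR14 and poly(I:C). It was at 127 and 145 CPM in the vehicle libraries and at 89.3, 86.0 and 58.2 in the naive ones, and reached 1960.2, 1997 and 2037 with SLR10, 2082, 1941 and 2157 with SLR14 and 2501, 2125 and 2006 with poly(I:C). These 9 libraries lay within a narrow band, far above every control. The fitted rise over vehicle was 14.7-fold with SLR10 (95% interval 8.92 to 24.1; limma adjusted p = 9.8e-07), 15.1-fold with SLR14 and 16.1-fold with poly(I:C). With pppNS the level was 904, 366 and 324 CPM in replicates 1, 2 and 3, which is 3.49-fold above vehicle (2.12 to 5.73; limma adjusted p = 0.0063): the first library was well above the other two, and all 3 stood between the controls and the other RNAs. The call of Parp14 with pppNS was lost in 4 of 18 alternatives, among them without vehicle replicate 1 or 2 (adjusted p = 0.094 and 0.065).

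Parp9, an ADP-ribose-binding protein that acts with Dtx3l, was at 59.0 and 63.1 CPM with vehicle and 48.0, 47.3 and 39.1 in naive spleens. It stood at 556, 579 and 549.8 with SLR10, 549, 762 and 605 with SLR14 and 716, 902 and 686 with poly(I:C). The rise over vehicle was 9.14-fold with SLR10 (6.17 to 13.5; limma adjusted p = 6.8e-07), 10.3-fold with SLR14 and 12.4-fold with poly(I:C). In the pppNS libraries Parp9 was at 329, 167 and 355 CPM, a 4.39-fold rise (2.97 to 6.50; limma adjusted p = 3.5e-04), and no pppNS library reached the lowest of the other RNA libraries.

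Dtx3l, the ubiquitin ligase of the pair, followed Parp9 in most libraries. It was at 61.3 and 64.6 CPM with vehicle, 44.4, 44.7 and 33.6 in naive spleens, 514, 516 and 526 with SLR10, 538, 657 and 583 with SLR14 and 674, 754 and 609 with poly(I:C). It rose 8.19-fold with SLR10 (5.29 to 12.7; limma adjusted p = 2.5e-06), 9.33-fold with SLR14 and 10.7-fold with poly(I:C). With pppNS it was at 343, 177 and 127 CPM and rose 3.12-fold (2.02 to 4.83; limma adjusted p = 0.0048), a call that was lost in 3 of 18 alternatives, among them without vehicle replicate 1 or 2 (adjusted p = 0.069 and 0.064). Unlike Parp9, which was highest in pppNS replicate 3, Dtx3l was lowest there.

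Parp12, a zinc-finger mono-ADP-ribosyltransferase with antiviral activity, had the largest fitted fold change of the 6 with SLR14, an order that turned without the erythroid-high libraries. Its level was 20.1 and 22.5 CPM with vehicle, 17.9, 15.4 and 13.8 in naive spleens, 284, 285 and 282 with SLR10, 282, 534 and 290.4 with SLR14 and 277, 419 and 348 with poly(I:C). SLR14 replicate 2 stood far above its 2 group mates, and poly(I:C) replicate 2 was the highest of its group; both are among the libraries with high erythroid markers, and the part of those markers in the level was not tested. The rise over vehicle was 13.1-fold with SLR10 (7.47 to 22.9; limma adjusted p = 4.0e-06), 16.2-fold with SLR14 and 15.8-fold with poly(I:C), and the log2 change with SLR14 was 4.02 with all libraries and 3.72 without the 3 erythroid-high ones, where Parp14 was at 3.96. With pppNS it was at 146, 64.4 and 200.2 CPM, a 5.71-fold rise (3.26 to 9.999; limma adjusted p = 0.0014).

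Parp10, a mono-ADP-ribosyltransferase with an RNA recognition motif, was alike in vehicle and naive spleens, at 35.2 and 33.0 and 33.2, 38.6 and 29.1 CPM. It stood at 388, 381 and 398 CPM with SLR10, 392, 493 and 411 with SLR14, and 339.7, 491 and 430.2 with poly(I:C). In the pppNS group it was at 179.6, 89.0 and 251 CPM. The rises over vehicle were 11.3-fold, 12.4-fold, 12.0-fold and 4.61-fold, with limma adjusted p from 8.6e-07 to 9.0e-04. Parp10 shares 205 exon bases (4.8% of its exons) with Plec on the same strand, and reads there cannot be told apart by strand.

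Parp11, a WWE-domain mono-ADP-ribosyltransferase of the nuclear envelope, moved least of the 6. It was at 28.8 and 29.0 CPM with vehicle and 27.8, 25.9 and 21.5 in naive spleens, at 184, 170.5 and 184 with SLR10, at 183, 267 and 193 with SLR14 and at 137, 169 and 139 with poly(I:C). That is 6.11-fold above vehicle for SLR10 (4.23 to 8.82; limma adjusted p = 2.1e-06), 7.20-fold for SLR14 and 5.03-fold for poly(I:C). In the pppNS libraries Parp11 was at 73.9, 37.7 and 68.9 CPM, all above the vehicle libraries, and the 1.98-fold difference was called narrowly (1.37 to 2.86; limma adjusted p = 0.037); without pppNS replicate 1 or 3 it was not (adjusted p = 0.075 and 0.086), nor without vehicle replicate 1 or 2 (0.22 and 0.26).

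**Figure D2:**
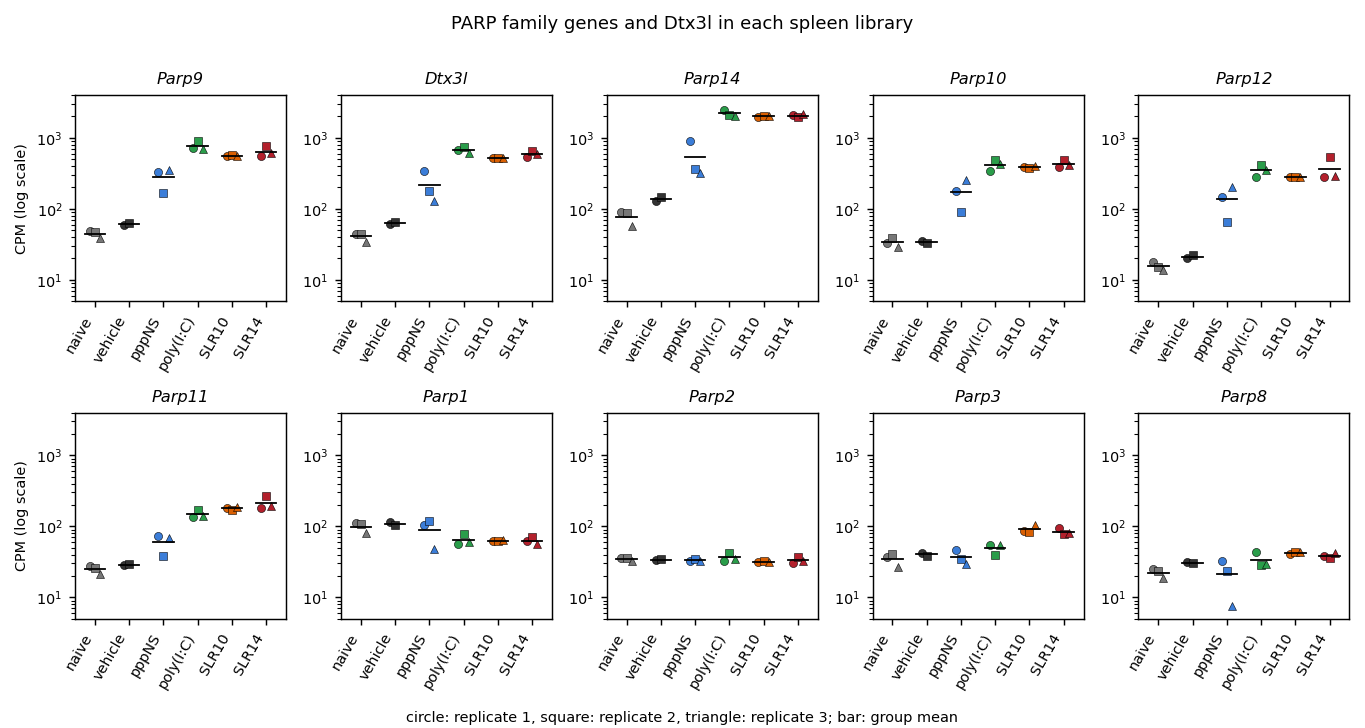
CPM (log scale) of the 10 genes in each of the 17 libraries, by group; circles, squares and triangles are replicates 1, 2 and 3, and bars are group means. The first 6 panels step up from naive and vehicle through pppNS to the other 3 RNAs, with Parp14 reaching 1941 to 2501 CPM there, while Parp2 stays between 30.6 and 42.6 CPM in all libraries.

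The 4 constitutive genes did not move together. With SLR10, Parp3 was higher, Parp1 was lower and Parp2 and Parp8 were not called, and the same held with SLR14. Of all tested genes, 19.2% were called lower with SLR10 and 19.4% with SLR14. None of the 4 was called in the poly(I:C) and pppNS groups. The groups did not overlap for 10 of 10 genes between SLR10 and vehicle (8 above, 2 below), where 40.1% of all tested genes lay wholly above and 40.6% wholly below vehicle, so the absence of overlap alone says little here.

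Parp3, a mono-ADP-ribosyltransferase that acts at double-strand breaks, separated the SLRs from the other RNAs. Its level was 41.9 and 38.6 CPM with vehicle and 37.2, 41.0 and 26.7 in naive spleens, 86.6, 84.1 and 103 with SLR10 and 95.2, 77.3 and 79.4 with SLR14, but 54.3, 40.0 and 54.8 with poly(I:C) and 45.8, 35.0 and 29.7 with pppNS. All 6 SLR libraries were above all 11 others. The rise over vehicle was 2.25-fold with SLR10 (1.63 to 3.11; limma adjusted p = 6.8e-04) and 2.07-fold with SLR14 (1.496 to 2.86; adjusted p = 0.0016), against 1.22-fold with poly(I:C) (0.884 to 1.69; adjusted p = 0.33). Tested directly, the SLRs together were 1.76-fold above poly(I:C) (1.37 to 2.27; limma adjusted p = 0.018). This call was lost, with the direction kept, without poly(I:C) replicate 2 (limma adjusted p = 0.12) and without SLR10 replicate 3 (adjusted p = 0.051). It was also lost without the 3 erythroid-high libraries, which leaves 1 poly(I:C) library (log2 difference 0.71 instead of 0.82).

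Parp1, the main DNA-break-activated PARP, went the other way. It was at 114 and 105 CPM with vehicle and 109, 106 and 79.2 in naive spleens, and at 62.4, 61.7 and 64.3 with SLR10, 61.7, 71.4 and 55.7 with SLR14 and 55.8, 77.3 and 60.5 with poly(I:C). Each library of these 3 groups was below each vehicle and naive library. The fitted levels were 0.576 times vehicle with SLR10 (0.37 to 0.898; limma adjusted p = 0.048), 0.575 times with SLR14 (0.369 to 0.896; adjusted p = 0.047) and 0.587 times with poly(I:C), which just missed the threshold (0.377 to 0.914; adjusted p = 0.058). These calls sit at the threshold and came and went with the settings: that of SLR10 was lost in 8 of 17 alternatives and that of SLR14 in 9 of 18, each time with the direction kept, and poly(I:C) passed in 7 of 18. With pppNS the values were 104, 118 and 47.2 CPM, replicates 1 and 2 near the level of the controls and replicate 3 below all of them.

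Parp2, which like Parp1 makes chains at DNA breaks, was the steadiest of the 10 genes. Over all 17 libraries it ranged from 30.6 to 42.6 CPM, with 34.0 ± 0.508 CPM in vehicle spleens (SD, n = 2), 31.8 ± 0.762 CPM with SLR10 (n = 3) and 36.7 ± 5.16 CPM with poly(I:C) (n = 3). Its highest value came from poly(I:C) replicate 2. The 95% interval of the log2 change from vehicle was -0.38 to 0.19 with SLR10, -0.32 to 0.25 with SLR14, -0.18 to 0.39 with poly(I:C) and -0.32 to 0.25 with pppNS.

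Parp8, a mono-ADP-ribosyltransferase whose role is little known, was at 31.6 and 30.1 CPM with vehicle, 25.2, 23.4 and 18.4 in naive spleens, 40.2, 43.9 and 42.8 with SLR10, 38.1, 36.0 and 41.5 with SLR14, and 43.4, 28.1 and 29.4 with poly(I:C). The pppNS group had 32.0, 23.4 and 7.65 CPM. The SLR libraries were all above vehicle, but the change was not called (1.37-fold with SLR10, 0.748 to 2.49, limma adjusted p = 0.43; 1.24-fold with SLR14, 0.682 to 2.27). With SLR10 Parp8 was called in 2 of 17 alternatives, when only SLR10 and vehicle were fitted (adjusted p = 4.4e-04) and with naive spleens as control (log2 change 0.92 instead of 0.45, adjusted p = 0.048). The value of pppNS replicate 3 was far below every other library.

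**Figure D3:**
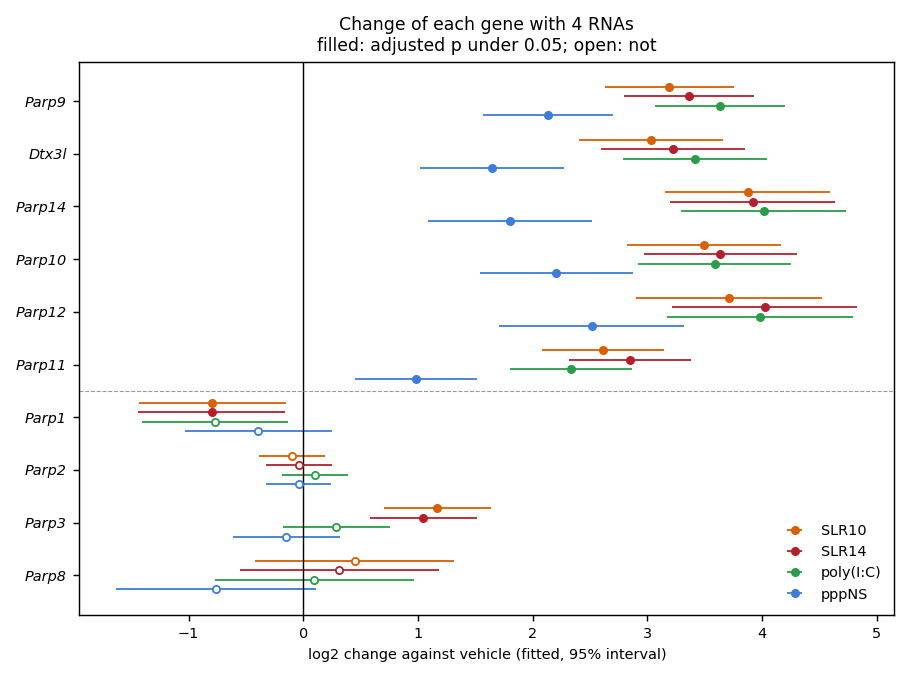
Fitted log2 change against vehicle for the 10 genes and each of the 4 RNAs; bars are 95% intervals, filled points have a limma adjusted p under 0.05, and a dashed line parts the interferon-responsive genes from the constitutive ones. For the 6 upper genes the pppNS point lies left of the other 3, as for Parp14 at 1.80 against 3.87 to 4.01, and Parp3 is filled for the SLRs only.

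Compared per length, as CPM per kb of merged exons, Parp1 had the highest level of the 10 genes in vehicle spleens, 20.7 ± 1.24 (SD, n = 2), followed by Parp14 at 14.6 ± 1.41 and Parp9 at 12.5 ± 0.594. Dtx3l (11 ± 0.417) and Parp3 (10.9 ± 0.628) came next and did not differ beyond their spread, then Parp2 (9.37 ± 0.14), Parp10 (7.98 ± 0.358), Parp12 (5.32 ± 0.421), Parp11 (4.12 ± 0.0148) and Parp8 (3.47 ± 0.118). With SLR10 the order per kb was led by Parp14 at 215 ± 4.14 (n = 3), then Parp9 at 115 ± 3.12, Parp10 at 91.0 ± 2.02 and Dtx3l at 90.6 ± 1.06, Parp10 and Dtx3l within their spread, and Parp12 at 71.1 ± 0.346. Parp11 (25.5 ± 1.10) and Parp3 (24.7 ± 2.80) overlapped, and Parp1 (11.9 ± 0.253), Parp2 (8.75 ± 0.21) and Parp8 (4.76 ± 0.216) were lowest. Among the interferon-responsive genes the level before treatment and the fold change did not go together: Parp14 was high in both, while Parp12 and Parp11, next to each other in vehicle spleens, rose 13.1-fold and 6.11-fold with SLR10.

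Injection of the vehicle was compared with no treatment. None of the 10 genes was called, where 0.05% of all tested genes (7 genes) were. Parp14 had the largest difference, 1.77-fold higher with vehicle (1.08 to 2.91; limma adjusted p = 0.52), and Dtx3l followed at 1.55-fold (0.999 to 2.39; adjusted p = 0.55). The vehicle libraries of Parp9, Parp11, Parp12, Parp14, Dtx3l and Parp8 were all above the naive ones, as were those of 24.9% of all tested genes.

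SLR14 and SLR10, which share the stem-loop design and, as their protocol states, one dose, were compared next. None of the 10 genes was called, nor was any of the 14010 tested genes by limma (89 had an unadjusted p under 0.05; edgeR on recovered reads called 0 and DESeq2 1). For the 6 responsive genes the log2 difference of SLR14 from SLR10 ran from 0.04 for Parp14 (95% interval -0.60 to 0.68) to 0.31 for Parp12 (-0.41 to 1.04). For the constitutive genes it was -0.003 for Parp1 (-0.58 to 0.57), 0.06 for Parp2 (-0.19 to 0.32), -0.12 for Parp3 (-0.54 to 0.30) and -0.13 for Parp8 (-0.91 to 0.64). The intervals leave room for differences of up to 2.05-fold for Parp12, so the absence of a call does not show that the 2 RNAs act alike.

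The SLRs together against poly(I:C) separated few genes: 3.5% of the tested genes were called, and of the 10 genes Parp3 alone, described above. The log2 difference was 0.40 for Parp11 (-0.01 to 0.81; limma adjusted p = 0.27), with all 6 SLR libraries above the 3 poly(I:C) ones, as for 7.62% of all tested genes, and -0.36 for Parp9 (-0.79 to 0.08) and -0.29 for Dtx3l (-0.78 to 0.20). Ifnb1, which codes for interferon beta, was 3.65-fold higher with the SLRs than with poly(I:C) (limma adjusted p = 2.6e-04), at 158 to 249.8 CPM against 45.6 to 76.9.

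The SLRs against pppNS called 44.9% of all tested genes (22.8% higher), and 8 of the 10 genes were higher with the SLRs. The difference was largest for Parp14, 4.27-fold (2.90 to 6.27; limma adjusted p = 2.9e-05), followed by Parp11 at 3.35-fold and Dtx3l at 2.80-fold, and was 2.21-fold for Parp9, the smallest of the responsive genes. Parp3 was 2.39-fold and Parp8 2.21-fold higher with the SLRs, while Parp1 and Parp2 were not called; without pppNS replicate 3, Parp1 was called lower with the SLRs (log2 difference -0.81 instead of -0.41, adjusted p = 6.9e-04). Poly(I:C) against pppNS called 26.8% of the tested genes (15.4% higher) and all 6 responsive genes, from 2.55-fold for Parp11 to 4.63-fold for Parp14 (limma adjusted p = 1.4e-04), and none of the constitutive ones. With only these groups fitted, Parp14 alone of the 6 was called. The calls of Parp10 and Parp12 were also lost without the erythroid-high libraries, a fit that leaves 1 poly(I:C) library. Parp1 was called lower with poly(I:C) without pppNS replicate 3 (log2 difference -0.79 instead of -0.38, adjusted p = 0.0029), and Parp3 and Parp8 were called higher without pppNS replicate 1 (0.60 instead of 0.44, adjusted p = 0.035, and 1.26 instead of 0.86, adjusted p = 0.013). Both comparisons share the pppNS libraries.

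With pppNS, Ifnb1 reached 0.617, 0.212 and 0.356 CPM, against 0 and 0.0596 in the vehicle libraries, where 3 reads were worth 0.0596 to 0.079 CPM, and was not called with pppNS (limma adjusted p = 0.14). Of a panel of 11 known interferon and interferon-induced genes, 11 were called higher with SLR10, SLR14 and poly(I:C) and 9 with pppNS. Of all tested genes 20.2%, 19.3%, 18.6% and 2.96% were. Since the panel was chosen as known, its direction is no independent evidence. Isg15, a ubiquitin-like antiviral protein, stood at 494, 233 and 1405 CPM with pppNS against 20.9 and 22.0 with vehicle.

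Within the chromosome 16 group, Dtx3l and Parp9 kept close to 1 ratio. The CPM of Dtx3l divided by that of Parp9 was 0.836 to 1.05 in 16 libraries, controls and treated alike, and 0.358 in pppNS replicate 3. Parp14 per Parp9 was 1.49 to 2.31 in the control libraries, 2.36 to 3.79 with the SLRs and poly(I:C), 2.75 and 2.19 in pppNS replicates 1 and 2, and 0.911 in pppNS replicate 3. In every SLR and poly(I:C) library this ratio was above that of every control library, but narrowly, with 2.36 in poly(I:C) replicate 2 against 2.31 in vehicle replicate 2. Among the SLR and poly(I:C) libraries, the erythroid-high ones held the lowest values, 2.36 to 2.92. The vehicle libraries (2.15 and 2.31) were above the naive ones (1.49 to 1.86). Parp14 has 9306 exon bases and Parp9 4872, and the part of transcript length in the ratio was not tested.

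In pppNS replicate 3 the 10 genes parted in both directions from the mean of their 2 group mates. Parp12 (log2 difference 1.04), Parp10 (0.99), Parp9 (0.60) and Parp11 (0.38) were above it, Parp2 (-0.01) was level, and Parp3 (-0.43), Parp14 (-0.83), Dtx3l (-0.95), Parp1 (-1.22) and Parp8 (-1.78) were below. Parp14 and Parp8, with 9306 and 8882 exon bases, are the longest of the 10, but length did not order the others: Parp11 with 7026 bases was above its mates and Parp3 with 3699 was below. In naive replicate 3 all 10 genes were below their mates, from -0.14 for Parp2 to -0.59 for Parp14. The cause of the length pattern was not tested. Without pppNS replicate 3 the log2 rise with pppNS over vehicle was 2.08 instead of 1.80 for Parp14 and 1.96 instead of 1.64 for Dtx3l. It was 1.94 instead of 2.13 for Parp9, 1.88 instead of 2.21 for Parp10 and 2.17 instead of 2.51 for Parp12. These 5 were still called, but Parp11, the other responsive gene, lost its call with pppNS in this fit.

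**Figure D4:**
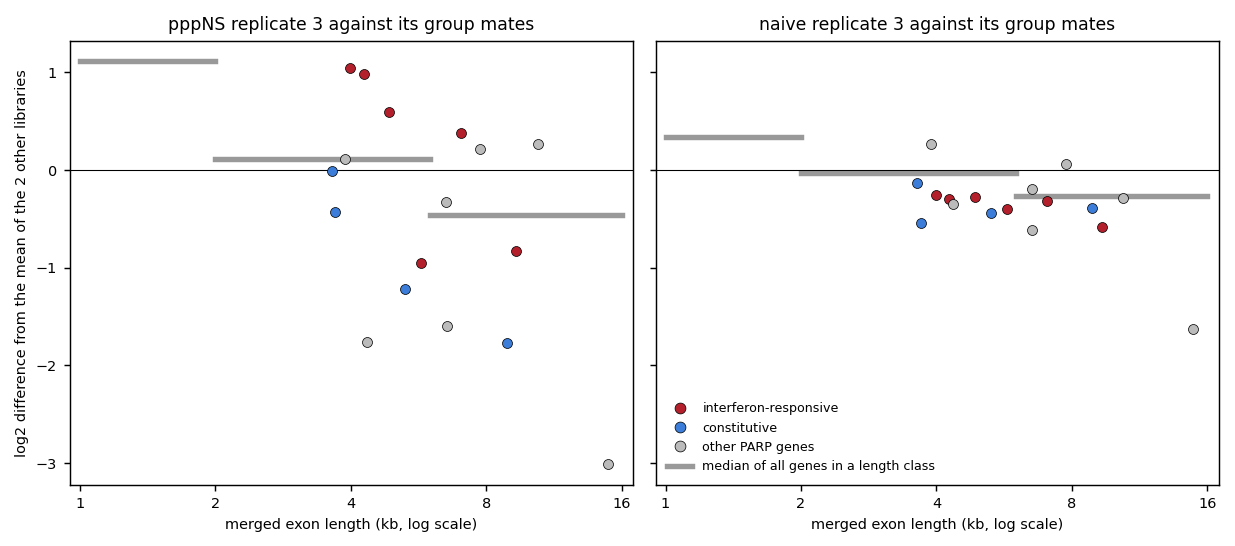
Log2 difference of each PARP gene in pppNS replicate 3 (left) and naive replicate 3 (right) from the mean of the other two libraries of its group, against merged exon length in kb (log scale); grey bars are medians of all genes with a mean over about 5 CPM in 3 length classes. The grey bars fall from short to long transcripts in both panels, from 1.12 to -0.46 on the left, and Tnks, the longest gene shown, is lowest in both.

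Markers of the cells that make up the spleen moved with the treatments, and their part in the PARP changes was not tested; in whole spleen, fewer cells of a type and less RNA per cell cannot be told apart. The 8 B cell markers summed to 2528 to 2551 CPM with vehicle, 1904 to 2069 with SLR10, 1390 to 1942 with SLR14, 1238 to 1761 with poly(I:C) and, in the pppNS group, 1925 to 2595, and 2, 3 and 4 of the 8 were lower with SLR10, SLR14 and poly(I:C), where 19.2%, 19.4% and 17.3% of all tested genes were, so that 2 of 8 is near the background. The 8 T cell markers summed to 359 to 394 CPM with vehicle and 171 to 258 over the SLR10, SLR14 and poly(I:C) libraries, with 5 of 8 lower in each of the 3 groups. The 6 markers of conventional dendritic cells summed to 164 to 166 CPM with vehicle, 61.2 to 78.9 over the same 9 libraries and 118 to 129.9 with pppNS, with 4, 4 and 5 lower. Of the 6 spleen stroma markers 4 were lower in each of these 3 groups, of the 6 of red pulp macrophages 4, 4 and 2, and of the 6 of endothelium 3, 2 and 2, with 1 higher. The 6 NK cell markers summed to 77.5 to 83.7 CPM with vehicle and 109 to 172 over the 9 libraries, with 3, 3 and 2 higher and 1 lower in each group. In naive spleens they summed to 92.1 to 119 CPM, which overlaps the 9 libraries. The 8 neutrophil markers summed to 140.1 to 144 CPM with vehicle, 404 to 881 with the SLRs, 735 to 1299.8 with poly(I:C) and 299 to 915 with pppNS. No marker of these lists was at 0 in any library. The erythroid sum was 3050 to 3792 CPM with vehicle and 7838 to 73188 with pppNS. In naive spleens it was 4276 to 12685, which overlaps the pppNS range. The 12 cell cycle markers summed to 279 to 351 CPM with vehicle, 473 to 612 in naive spleens and 1020 to 2504 with pppNS. In the 3 erythroid-high libraries they summed to 1443 to 3696 CPM, against 227 to 288 in the other SLR10, SLR14 and poly(I:C) libraries. None of the 12 was called with any RNA against vehicle. Without the 3 erythroid-high libraries, all 6 responsive genes were still called with SLR14, Parp14 at a log2 change of 3.96. Poly(I:C) then keeps 1 library, and the log2 change of Parp14 with it was 4.2.

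The 7 remaining PARP genes of the table held 2 more that rose with the SLRs and poly(I:C). Of all tested genes, 20.2% were called higher with SLR10, 19.3% with SLR14 and 18.6% with poly(I:C), so 2 of 7 is not far from the background. Zc3hav1, the antiviral RNA-binding protein ZAP, which lacks ADP-ribose transfer activity, stood at 132 and 121 CPM with vehicle, 441, 445 and 455 with SLR10, 453, 539.6 and 481 with SLR14, 655, 737 and 597 with poly(I:C) and, in the pppNS group, 353, 222 and 223. It rose 3.53-fold, 3.87-fold, 5.22-fold and 2.05-fold (limma adjusted p from 5.7e-07 to 0.0061), which with SLR10 and SLR14 is less than any of the 6 responsive genes. Tiparp, a mono-ADP-ribosyltransferase best known as a target of the aryl hydrocarbon receptor, was at 17.2 and 18.5 CPM with vehicle, 56.7, 58.1 and 49.5 with SLR10 and 112, 71.7 and 80.3 with poly(I:C), and rose 3.01-fold, 2.78-fold with SLR14 and 4.75-fold (limma adjusted p = 0.0073, 0.012 and 7.3e-04). In the pppNS libraries Tiparp was at 36.2, 22.0 and 8.00 CPM, on both sides of vehicle.

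Parp16, an enzyme of the endoplasmic reticulum membrane, was the only 1 of the 7 called lower, and only with SLR10, where 19.2% of all tested genes were. With SLR10 it was at 0.513, 0.524 and 0.504 CPM against 4.19 and 3.20 with vehicle (log2 change -2.04 ± 0.57 SE, limma adjusted p = 0.011). With SLR14 it was at 0.727, 2.44 and 0.517 CPM and with poly(I:C) at 0.593, 6.30 and 2.65, and in both groups the erythroid-high libraries held the higher values; the part of those cells was not tested. Parp4, the PARP of vault particles, was at 70.2, 80.6 and 77.8 CPM with SLR10 against 43.9 and 39.9 with vehicle and was not called (limma adjusted p = 0.093). Parp6 and the tankyrases Tnks and Tnks2, which make chains on telomeric and Wnt-pathway proteins, were not called with any RNA; Tnks2 stayed between 80.0 and 129 CPM.

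**Figure D5:**
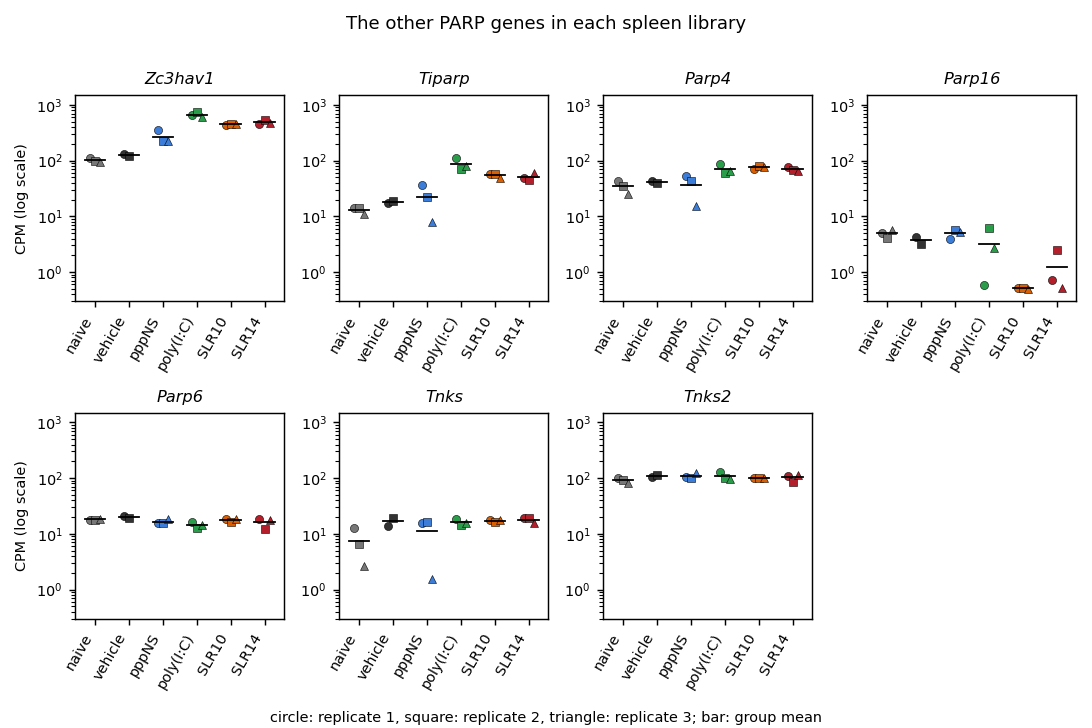
CPM (log scale) of the 7 other PARP genes in each library, by group; symbols are replicates and bars are group means. Zc3hav1 and Tiparp step up with the SLRs and poly(I:C), Parp16 is near 0.5 CPM in the SLR10 libraries, and Tnks drops to 1.53 CPM in pppNS replicate 3 and 2.62 in naive replicate 3.

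Genes that act before and after the PARPs were described from lists of known members. Of 15 tested genes of NAD supply and use, 4 were higher and 4 lower after SLR10, 3 and 4 after SLR14, 3 and 3 after poly(I:C), and 1 and 0 after pppNS, shares not far from the 20.2% higher and 19.2% lower of all tested genes with SLR10, 19.3% and 19.4% with SLR14 and 18.6% and 17.3% with poly(I:C), with a list median log2 change between -0.02 and 0.07. Nampt, the rate-limiting enzyme that recycles nicotinamide to NAD, rose from 53.2 and 58.4 CPM with vehicle to 663, 693 and 667 with SLR10, 703, 675 and 718 with SLR14, 862, 664 and 674 with poly(I:C) and, in the pppNS group, 257, 116 and 203. These are 12.0-fold, 12.4-fold, 13.0-fold and 3.25-fold rises (limma adjusted p from 1.1e-07 to 9.2e-04), within the range of the responsive PARPs. Sirt1, a deacetylase that uses NAD, rose 1.67-fold, 1.91-fold and 2.27-fold with the first 3. Qprt, of NAD synthesis from tryptophan, fell by 1.01, 1.15 and 1.10 on the log2 scale, and Nmrk1, which takes in nicotinamide riboside, fell by 0.66, 0.66 and 0.47. Qprt is a low gene here, at 0.776 to 4.51 CPM.

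The enzymes that take ADP-ribose off again had a list median log2 change between -0.09 and 0.19 with the 4 RNAs against vehicle. Of Parg, Adprh, Adprhl2, Macrod1, Macrod2 and Oard1, the 6 tested of 7 listed (Adprhl1 was under the filter), Adprh and Adprhl2 rose with SLR10, 1.38-fold and 1.48-fold (limma adjusted p = 0.022 and 0.0086), and none was called with SLR14, poly(I:C) or pppNS. Among 9 partners of Parp1 in DNA repair, Chfr, a ubiquitin ligase that binds poly(ADP-ribose), fell by 0.60 with SLR10 and by 0.54 with SLR14 on the log2 scale (limma adjusted p = 0.0032 and 0.0068). Timeless, a replication fork protein that binds Parp1, rose 2.1-fold with SLR14 and 2.59-fold with poly(I:C). Its values, 30.2, 63.7 and 27 and 27.9, 76.6 and 45.8 CPM, were highest in the erythroid-high libraries. Cell cycle markers were high in the same libraries, and the part of erythroid or of dividing cells was not tested. The other 7 partners were not called with any RNA against vehicle. Of all tested genes, 20.2% were called higher and 19.2% lower with SLR10, and 19.3% and 19.4% with SLR14. With poly(I:C) 18.6% were called higher, so these small counts say little about either list.

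The 4 other Deltex ligases, relatives of Dtx3l, went different ways. Dtx4 rose 2.19-fold with SLR10 and 1.89-fold with SLR14 (limma adjusted p = 9.2e-04 and 0.0042), and Dtx2 1.52-fold with SLR10. Dtx3 fell by 1.21 with SLR10 and by 1.06 with SLR14 on the log2 scale. Dtx1, a Notch-pathway gene of B cells, fell with poly(I:C), 27.6, 19.6 and 29.7 CPM against 94.5 and 73.3 with vehicle (log2 change -1.70; limma adjusted p = 2.8e-05), and was 2.89-fold higher with the SLRs than with poly(I:C) (adjusted p = 2.5e-04). None of the 4 was called with pppNS. With SLR10, 2 of the 4 were called higher and 1 lower, where 20.2% and 19.2% of all tested genes were. With SLR14 it was 1 higher and 1 lower (19.3% and 19.4% of all tested genes), and with poly(I:C) 1 lower (17.3%).

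Likeness of pattern was measured by Pearson's r of log2(CPM + 0.5) over the 17 libraries, which share the large step between control and treated groups, and is given as a description. The 5 genes most like the mean of the 6 responsive genes were Oasl2 (r = 0.998), Daxx (0.997), Herc6 (0.997), Aida (0.997) and Trafd1 (0.996). By single gene, Parp9 was closest to Tor1aip2 (0.997), Oasl1 and Trim21, Parp10 to Igtp (0.998), Dhx58 and Rnf114, and Parp12 to Slc25a22 (0.997), Oas1g and Dhx58. Parp14 was closest to Ddx58 (0.997), the gene of RIG-I, then Slfn8 and Irgm2, Dtx3l to Irgm2 (0.998), Stat2 and Hsh2d, and Parp11 to Stxbp3a (0.993), Olfr56 and Gbp2. For the constitutive genes the closest were Itpr1 (0.979), Dtx4 and Tnfaip1 for Parp3, Abl1 (0.960), Ceacam1 and Zfp512 for Parp1, Plxnc1 (0.979), Uvrag and Atp8b2 for Parp8, and Hnrnpul1 (0.902), Primpol and BC052040 for Parp2, the loosest of the 10.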

How the data were processed

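Spleen mRNA of 17 libraries was measured by RNA-seq. The deposited signal per gene and library is, by the name the authors gave the table, CPM (counts-per-million) after edgeR normalisation; the columns sum to 696096 to 1484240. Per the submitters' processing notes HTSeq, TopHat2 2.0.6, edgeR and SAMtools 1.4 were among the tools and mm10 or GRCm38 the build; which did what, which gene annotation was counted and whether strand was used are not given in the sources used here. Low values are whole multiples of 1 read in each library (99.99% of values within 0.01 reads), so reads were recovered for count tests; on them edgeR called 5374, 5269, 5017 and 569 genes against vehicle for SLR10, SLR14, poly(I:C) and pppNS in turn. Lines without a gene name (5), named as missing (699) or turned into a date (27) and 113 extra lines of repeated names were left out, and the lines without a gene name held 28.1 to 46.1% of reads. The tests were planned for CPM and kept, although the columns do not sum to the same total as CPM would.

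The members and gene lists were chosen with earlier results of these data known. The 14010 genes that reached 1 CPM in 2 or more libraries were fitted with limma 3.58.1 in R 4.3.3 on log2(CPM + 0.5) with a mean-variance trend. All 17 libraries were in the same model of group means, and p-values were adjusted by Benjamini-Hochberg over all 14010 with a threshold of 0.05. The fit was also run on simulated counts with the same dispersion for all genes and no outlying libraries. That run therefore says nothing about the outlying libraries here. A fold on this scale understates the change of low genes. All 10 members were named; of each other list at most 4 genes with the smallest adjusted p against vehicle, or all of a list of 7 or fewer; and by Pearson's r the 5 genes most like the mean of the responsive members and the 3 most like each member, leaving out gene models named by a number. Alternatives were count tests on the recovered reads (DESeq2 1.42.0 and, as the quasi-likelihood test, edgeR 4.0.16), other pseudocounts (0.1 and 2), filters and scalings, a replicate block, other control groups, fits on only the groups compared, and fits that leave out libraries. No pairing of libraries by shared replicate number was seen, which does not exclude one. Gene positions are from GENCODE vM21 and promoter sequences from RefSeq GRCm38.p6.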

Additional observations from a re-analysis of the deposited data

How the results depend on the processing

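The groups hold 2 or 3 libraries, and the 2 vehicle libraries limit the precision of every comparison with vehicle. The 6 responsive members kept their direction and call with SLR10, SLR14 and poly(I:C) against vehicle under every alternative that was run. With pppNS against vehicle 6 members were called, but 4 with quantile scaling, 0 when only those groups were fitted, a fit that called 0 genes at all, and 3 without either vehicle library, so that leaving out 1 library gave 3 to 6. Parp11 lost its call with pppNS in 9 of 18 alternatives, Parp14 in 4 and Dtx3l in 3. For the SLRs against poly(I:C) the count of members was 1, and 0 to 1 when 1 library was left out (0 without SLR10 replicate 3 or poly(I:C) replicate 2). Without the erythroid-high libraries poly(I:C) keeps 1 library, so no count is given for that fit. For poly(I:C) against pppNS it was 6, and 1 (Parp14) with only the groups compared.

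Replicate numbers are shared between groups, and no pairing by them was seen, which does not exclude one. The deviations of libraries with equal numbers had a median correlation of 0.03, with 15 of 40 pairs over 0.1. Those with different numbers had -0.03, with 27 of 80. With a replicate block, 7 members were called for either SLR against vehicle, where 5673 (SLR10) and 5558 (SLR14) of all 14010 tested genes were. Against the same vehicle libraries, 5 members were called with pppNS (513 genes) and 6 with poly(I:C) (5225 genes). The SLRs against pppNS gave 8 members (6830 genes), and poly(I:C) against pppNS gave 6 (4100 genes). The SLRs against poly(I:C) gave 1 member (542 genes). Vehicle against naive gave 0 members (6 genes), and SLR14 against SLR10 gave 0 (0 genes). Under the block Parp1 lost its calls with the SLRs (limma adjusted p = 0.057 and 0.056) and Parp11 that with pppNS (0.064).

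Sign changes occurred in log2 values of Parp1, Parp2, Parp3, Parp8 and Parp14 that were not called in either setting. With poly(I:C) against vehicle, quantile scaling gave -0.20 for Parp2, -0.084 for Parp3 and -0.18 for Parp8, and leaving out the erythroid-high libraries gave -0.047 for Parp2; leaving out 1 library gave -0.0091 to 0.18 for Parp2 and -0.10 to 0.21 for Parp8. With pppNS, Parp1 ran from -0.64 to 0.016 when 1 library was left out, the latter without pppNS replicate 3, and was again 0.016 when naive replicate 3 was left out with it (chosen after seeing the data); Parp3 was 0.072 with naive spleens as control. With SLR14 against vehicle, Parp2 ran from -0.12 to 0.021 when 1 library was left out. For SLR14 against SLR10, Parp14 was -0.071 with quantile scaling and Parp2 was -0.020 without the erythroid-high libraries; leaving out 1 library gave -0.020 to 0.12 for Parp2 and -0.097 to 0.080 for Parp1. For the SLRs against poly(I:C), Parp8 was -0.082 without the erythroid-high libraries.

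Counts of called genes moved by over 1.5 times for SLR10 (5518, and 9676 with only the groups compared), poly(I:C) (5030, and 3255 and 3293 without vehicle replicate 1 and 2), pppNS (603, and 1398 by DESeq2, 1526 with naive and 1547 with both controls, 177 and 156 without vehicle replicate 1 and 2, and 971 without pppNS replicate 2) and poly(I:C) against pppNS (3761, and 684 with only the groups compared). For the SLRs against poly(I:C) 491 genes were called, 1233 by DESeq2 and 841 with only the groups compared. The count was 261, 260 and 218 without SLR10 replicate 1, 2 and 3, and 226 and 933 without SLR14 replicate 1 and 2. It was 1451, 192 and 174 without poly(I:C) replicate 1, 2 and 3, and without SLR14 replicate 3 it was 369, within 1.5 times. No count is given without the erythroid-high libraries, where poly(I:C) keeps 1 library. Vehicle against naive gave 7 genes, 0 with only the groups compared or without either vehicle library, 1 by edgeR, 4 with a pseudocount of 0.1, a filter at 5 CPM or without naive replicate 2 or 3, 11 with a pseudocount of 2, 16 with quantile scaling, 21 with no filter and 99 by DESeq2. Quantile scaling moved the median log2 change of all genes from 0.04 to -0.07 for SLR14, from 0.07 to -0.09 for poly(I:C) and from 0.01 to -0.10 for pppNS against vehicle. It split the calls as 1959 higher and 3042 lower with poly(I:C) (2606 and 2424 in the report's fit), 374 and 324 with pppNS (414 and 189) and 217 and 111 for the SLRs against poly(I:C) (232 and 259). The causes were not tested.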
